A study of Homo sapiens with 4 samples.

Results

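The NF-kB pathway and its inflammatory genes were examined in SCC-15 cells with and without REEP6 overexpression. The set was chosen by name, with earlier results of these data known, and held 46 of the 51103 genes in the tables. These were 17 cytokines, chemokines and related secreted proteins, 8 receptors and adhesion molecules and 8 adaptors and kinases. The others were 5 NF-kB subunits and 8 genes grouped as inhibitors and feedback genes. The last group also holds TNFAIP2, a TNF-induced gene, and TNFAIP8, an inhibitor of apoptosis. The study compared a REEP6-overexpression line made from SCC-15 with lentivirus (2 libraries) with a negative control of the same cells, labelled NC (2 libraries). Polyadenylated RNA was sequenced from both. The labels do not say what the control virus carried, whether either line was a clone or a pool, or whether the 2 libraries of a group came from separate cultures. The p-values therefore measure only the spread between these libraries, which may be technical. SCC-15 is a line of human oral squamous cell carcinoma, and REEP6 is a membrane protein of the endoplasmic reticulum.

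The libraries held 13236417 and 13302967 counts with REEP6, against 12856256 and 15208629 in the control. REEP6 itself was at 20.0 and 20.9 FPKM with REEP6, against 11.1 and 12.6 FPKM in the control, a log2 fold change of 0.82 ± 0.108 (SE) with an edgeR adjusted p of 0.00119. Over all genes 13077 were tested and 25.0% were called at a Benjamini-Hochberg adjusted p of 0.05 (edgeR quasi-likelihood test, two-sided). Of 12 markers of squamous oral epithelium 10 were under 1 FPKM in all 4 libraries. They include the keratins KRT5, KRT14 and KRT17, the factor TP63 and the cadherin CDH1. The list summed to 10.1 and 10.4 FPKM with REEP6, against 7.38 and 7.37 FPKM in the control, most of it EGFR, which was called higher. KRT6A and DSG3 had no count at all, so the labelled cell type was not borne out by these markers. Leukocyte and macrophage markers summed to 4.44 and 4.20 FPKM with REEP6, against 3.55 and 5.03 FPKM in the control. Of these 12 markers 10 were under 1 FPKM in all 4 libraries, with CD163, CD3D, MS4A1 and CD68 among those at 0. The other 2 had at least 1 FPKM in at least 2 libraries and were not called. Endothelial markers were all under 1 FPKM. Fibroblast markers differed between the groups. Their summed level was 18.3 and 18.1 FPKM with REEP6, against 36.6 and 34.5 FPKM in the control, with 4 of 10 called lower and FAP at 0. The part of these markers in the results on the NF-kB genes was not tested.

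NF-kB is a family of dimeric transcription factors that wait in the cytoplasm, bound to inhibitors of the IkB group. Receptors for tumour necrosis factor, interleukin-1 and microbial products act through adaptors on the IkB kinase complex, which marks the inhibitors for destruction and frees the dimers to enter the nucleus. The genes they switch on include chemokines that draw in neutrophils and also the inhibitors themselves, which is why NFKBIA and TNFAIP3 are known as negative feedback genes. In squamous carcinomas the pathway is known to drive cytokine and chemokine production by the tumour cells.

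With REEP6, the mRNAs of 3 of 7 tested secreted proteins were called lower by edgeR with TMM scaling. So were those of 3 of 5 receptors and adhesion molecules, among them the shared chain IL6ST. RELB and 4 of 7 genes grouped as inhibitors and feedback genes were also called lower, the 4 including the TNF-induced gene TNFAIP2. The mRNAs of LIF, TNFRSF1A and RELA were called higher, and none of 7 adaptors and kinases was called. The secreted pentraxin PTX3 was 3.50-fold lower, the interferon-induced chemokine CXCL10 3.34-fold and the neutrophil chemokine CXCL8 3.09-fold (n = 2 libraries per group). Of the 46 genes 30 had at least 1 FPKM in at least 2 libraries and were tested, and 11 of these were called lower and 3 higher. Over all genes tested, 14.2% were called lower and 10.9% higher. By at least 1.5-fold, 9 of the 30 were lower and 0 higher, against 5.98% lower and 3.75% higher over all genes. The median log2 fold change was -0.22 over the 30, and -0.01 over all genes tested. CXCL2 and IL1RAP passed the filter through the control libraries alone, so a difference was built into their selection. With a filter on the mean over all 4 libraries instead, 28 of the genes were tested and 10 called lower and 3 higher. In bulk RNA, fewer cells that express a gene and less RNA per cell cannot be told apart.

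**Figure D1:**
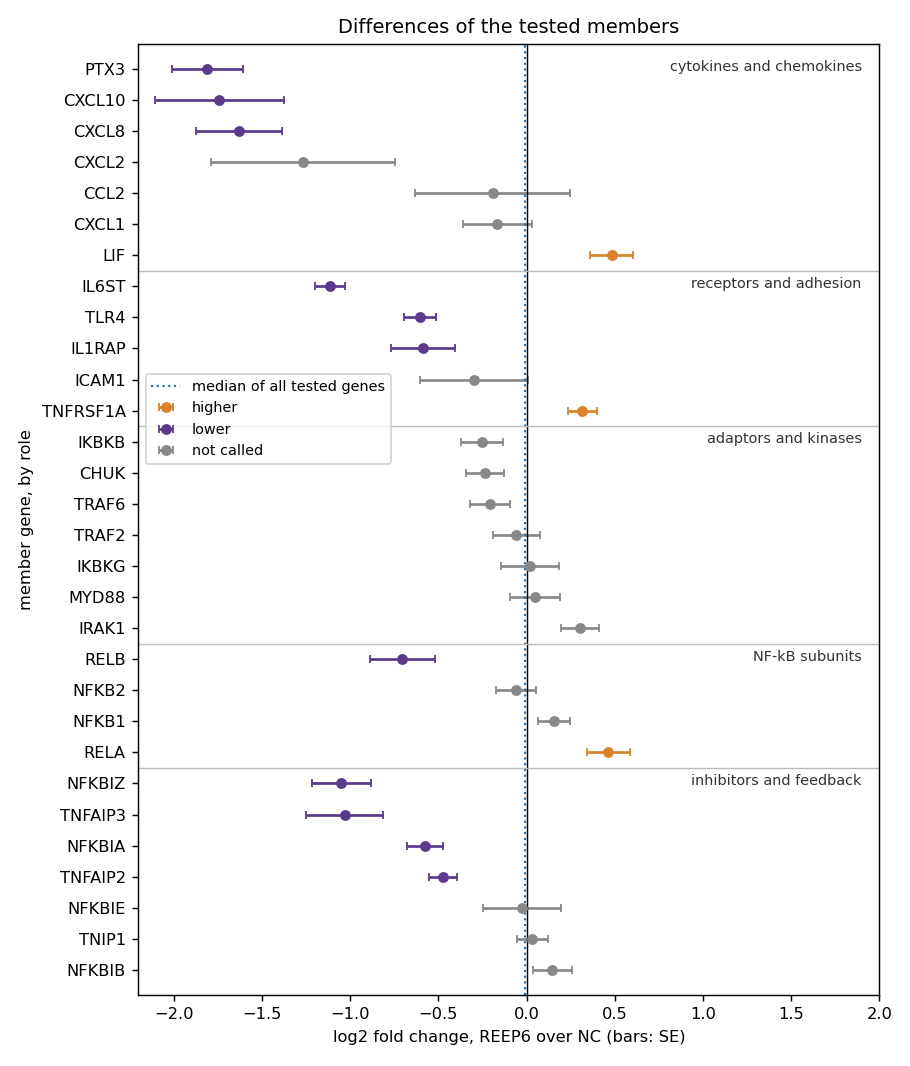
Log2 fold change of each of the 30 tested genes, REEP6 over control, with its SE as a bar, grouped by role; the dotted line is the median of all 13077 tested genes (-0.01). PTX3, CXCL10 and CXCL8 lie below -1.5, the adaptors and kinases lie within 0.31 of 0, and the 3 genes called higher lie between 0.32 and 0.48.

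NF-kB dimers are known to bind kB elements, and the sequence upstream of each start site was therefore examined. Windows of 300 bases (250 upstream, 50 downstream) were taken from RefSeq on GRCh38.p14, where 38 of the 46 genes had at least 1. The loose form GGNNNTTCC on either strand was found in 20.1% of all 35114 windows, and a strict form with 1 more G in front, which always contains a loose match, in 6.52%. Of the 38 genes 23 had a loose match and 14 a strict one in some window, but 11 of them had several windows. Counted by window, 26 of 56 held the loose form (46.4%) and 15 held the strict form (26.8%). Of the genes called lower 7 of 10 with a window had a loose match, as did 9 of 13 genes that were tested and not called, and 0 of the 2 genes called higher that had a window. The AP-1 form TGANTCA was in 7.71% of all windows and in 14.3% of the 56, and 6 of the 38 genes had it in some window. Windows of the same gene can overlap, as those of IL1A do, so a site can be counted more than once. A match describes letters only.

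The upstream 250 bases are shown for the genes that were at least 1.5-fold lower and held the strict form (CXCL10, NFKBIZ and TNFAIP3). CXCL8 and CXCL1 were added after their values were seen, since these neighbouring chemokine genes differed in their calls. Capitals mark loose or strict kB matches on either strand, run together where they overlap, and each line reads 5′ to 3′ on the gene's strand. CXCL8 (chr4:73740319-73740568, plus strand) has 1 loose match, GGAATTTCC, beginning 91 bases upstream of the start that RefSeq gives, and an AP-1 form, TGACTCA, at 137 bases. CXCL1 (chr4:73869143-73869392, plus strand) has GGGAATTTCC at 79 bases and GGGCTTTCC at 53 bases. The same letters stand at 78 and 53 bases in CXCL2, and at 79 and 53 bases in CXCL3. CXCL10 (chr4:76023498-76023747, minus strand) has 3 matches, the first, GGGAAATTCC, at 177 bases. NFKBIZ (chr3:101827740-101827989, plus strand) has GGGAATTTCC at 223 bases, and TNFAIP3 (chr6:137867009-137867258, plus strand) has 2 strict matches on the opposite strand, at 67 and 55 bases.
CXCL8: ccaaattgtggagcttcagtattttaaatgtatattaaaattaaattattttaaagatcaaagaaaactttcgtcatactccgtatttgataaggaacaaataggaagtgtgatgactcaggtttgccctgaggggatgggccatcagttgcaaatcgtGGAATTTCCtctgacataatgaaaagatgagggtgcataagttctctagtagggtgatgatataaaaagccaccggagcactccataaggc
CXCL1: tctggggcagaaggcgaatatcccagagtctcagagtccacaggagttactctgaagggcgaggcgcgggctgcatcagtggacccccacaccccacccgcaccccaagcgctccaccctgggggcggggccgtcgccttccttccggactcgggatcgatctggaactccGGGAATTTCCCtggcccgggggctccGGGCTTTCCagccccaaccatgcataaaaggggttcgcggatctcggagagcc
CXCL10: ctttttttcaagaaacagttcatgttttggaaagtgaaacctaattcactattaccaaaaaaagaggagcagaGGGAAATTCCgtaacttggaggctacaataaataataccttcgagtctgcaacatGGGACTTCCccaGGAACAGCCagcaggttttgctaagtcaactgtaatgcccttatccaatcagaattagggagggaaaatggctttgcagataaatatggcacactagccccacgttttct
NFKBIZ: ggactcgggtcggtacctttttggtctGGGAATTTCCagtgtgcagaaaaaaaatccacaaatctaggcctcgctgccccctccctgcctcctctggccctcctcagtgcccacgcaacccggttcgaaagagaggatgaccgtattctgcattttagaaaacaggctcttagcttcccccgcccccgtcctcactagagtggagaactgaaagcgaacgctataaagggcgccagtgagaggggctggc
TNFAIP3: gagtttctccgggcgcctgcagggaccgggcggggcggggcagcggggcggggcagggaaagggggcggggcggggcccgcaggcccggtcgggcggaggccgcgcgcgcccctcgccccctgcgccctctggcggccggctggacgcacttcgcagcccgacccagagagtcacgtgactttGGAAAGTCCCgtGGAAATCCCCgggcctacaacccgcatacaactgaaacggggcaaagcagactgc

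Among the secreted proteins, PTX3 (chromosome 3, 157436789 to 157443628, plus strand on GRCh38), a pentraxin that binds microbes and complement, had 3.15 and 4.73 FPKM with REEP6, against 15.4 and 12.8 FPKM in the control. Both REEP6 libraries lay far under both control libraries. The means were 3.94 ± 1.11 FPKM with REEP6 and 14.1 ± 1.78 FPKM in the control (SD, n = 2 each), a log2 fold change of -1.81 ± 0.201 (SE) with an edgeR adjusted p of 0.00063. CXCL8 (chromosome 4, 73740506 to 73743716, plus strand), which attracts neutrophils, had 1.76 and 1.95 FPKM with REEP6, against 4.65 and 7.0 FPKM in the control. The groups did not overlap, and the 2 controls differed more from each other than the 2 REEP6 libraries did. Its log2 fold change was -1.63 ± 0.243 (SE) (edgeR adjusted p 0.00194), and it ranged from -1.89 to -1.27 when 1 library was left out. CXCL10 (chromosome 4, 76021117 to 76023497, minus strand), a chemokine for activated T cells that is known as an interferon target, had 1.16 and 0.767 FPKM with REEP6, against 3.17 and 3.41 FPKM in the control. The highest REEP6 value was under the lowest control value, on few reads, with 18 and 12 counts with REEP6, against 48 and 61 in the control. The log2 fold change was -1.74 ± 0.365 (SE) (edgeR adjusted p 0.00872).

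CXCL8, CXCL1, CXCL3 and CXCL2 lie in this order on chromosome 4, between 73740506 and 74099293. CXCL1 begins 125.7 kb beyond the end of CXCL8. CXCL1, which acts on the neutrophil receptor CXCR2, had 7.64 and 8.29 FPKM with REEP6, against 7.68 and 10.5 FPKM in the control. Its groups overlapped and it was not called (log2 fold change -0.17 ± 0.196 (SE), edgeR adjusted p 0.578). The ratio of CXCL1 to CXCL8 FPKM within a library was 4.34 and 4.25 with REEP6, against 1.65 and 1.49 in the control, a description with no test. CXCL2 had 6 and 19 counts with REEP6, against 30 and 35 in the control, with a log2 fold change of -1.27 ± 0.520 (SE) and an edgeR adjusted p of 0.103. This value rested on REEP6 replicate 1: it was -0.67 without that library and -2.30 without REEP6 replicate 2, where the gene was called (adjusted p 0.0179). CXCL3, under the filter, had 5 and 10 counts with REEP6, against 17 and 33 in the control. The 3 genes are close paralogs, and 12.5% of the 50-base stretches of CXCL2 transcripts also occur in transcripts of other genes, chiefly CXCL3 and CXCL1. Their separate values are therefore uncertain. CCL2, a monocyte chemokine, had 0.571 and 1.25 FPKM with REEP6, against 1.06 and 1.06 FPKM in the control, and was not called (edgeR adjusted p 0.792).

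LIF, an interleukin-6 family cytokine, was the only secreted protein of the set with a call in the other direction. It had 8.83 and 8.33 FPKM with REEP6, against 6.66 and 5.86 FPKM in the control, without overlap. The means were 8.58 ± 0.353 FPKM with REEP6 and 6.26 ± 0.565 FPKM in the control (SD, n = 2 each), and the log2 fold change was 0.48 ± 0.122 (SE) (edgeR adjusted p 0.0189). The call ended without REEP6 replicate 1 (adjusted p 0.0835), without NC replicate 2 (0.0513) and with equal FPKM sums (0.0725). Antisense genes overlap 6.73% of its exonic bases, and the kit named in the labels does not mark strand.

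**Figure D2:**
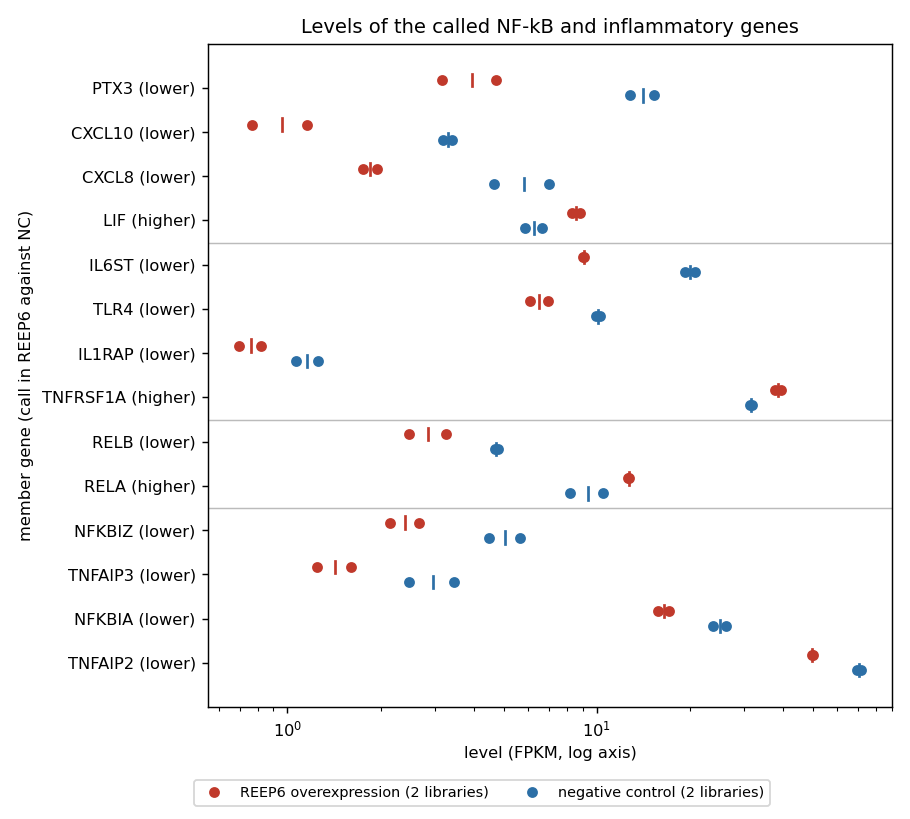
Level (FPKM, log axis) of the 14 called genes in each library, with REEP6 overexpression (red) above negative control (blue) and the short bar at the mean of the 2 libraries; grey lines separate the roles. The 14 were picked by their call, so the lack of overlap between their groups adds no support. PTX3 is at 3.15 and 4.73 FPKM with REEP6, against 15.4 and 12.8 FPKM in the control.

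Among the receptors, IL6ST (chromosome 5, 55935095 to 55994993, minus strand), the signalling chain gp130 that receptors for interleukin-6, LIF and related cytokines share, had 9.06 and 9.13 FPKM with REEP6, against 19.3 and 20.8 FPKM in the control. The REEP6 libraries were nearly equal and far under both controls. The means were 9.09 ± 0.0480 FPKM with REEP6 and 20.0 ± 1.02 FPKM in the control (SD, n = 2 each), a log2 fold change of -1.11 ± 0.0872 (SE) with an edgeR adjusted p of 0.000126, the smallest in the set. An antisense gene overlaps 8.58% of its exonic bases. LIF was thus higher and the chain its receptor uses lower, and the within-library ratio of LIF to IL6ST FPKM was 0.975 and 0.913 with REEP6, against 0.345 and 0.282 in the control.

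TLR4, the receptor for bacterial lipopolysaccharide, had 6.10 and 6.93 FPKM with REEP6, against 9.93 and 10.2 FPKM in the control. Both REEP6 values were under both control values (log2 fold change -0.60 ± 0.0930 (SE), edgeR adjusted p 0.00221). The receptor is best known from myeloid cells. Of the 12 leukocyte and macrophage markers 10 were under 1 FPKM in all libraries and 2 passed the filter. CD14, the co-receptor of TLR4, had 11 and 8 counts with REEP6, against 10 and 16 in the control, and CD163 had none. IL1RAP, the accessory chain of the interleukin-1 receptor, had 0.699 and 0.819 FPKM with REEP6, against 1.06 and 1.26 FPKM in the control. It was called (log2 fold change -0.59 ± 0.182 (SE), edgeR adjusted p 0.0415), but the call ended without NC replicate 2 (adjusted p 0.196), without REEP6 replicate 1 (0.193) or 2 (0.0515), and with DESeq2 (0.103). The ligand-binding chain IL1R1 had 1 count in REEP6 replicate 1 and none in the other libraries.

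TNFRSF1A, the main receptor for tumour necrosis factor, was the third most abundant of the 46 genes. It had 37.7 and 39.3 FPKM with REEP6, against 31.3 and 31.7 FPKM in the control. All libraries lay within a narrow range, and both REEP6 libraries were above both controls. The means were 38.5 ± 1.15 FPKM with REEP6 and 31.5 ± 0.252 FPKM in the control (SD, n = 2 each), and the log2 fold change was 0.32 ± 0.0827 (SE) (edgeR adjusted p 0.0218). This call ended without REEP6 replicate 1 (adjusted p 0.0787) or 2 (0.142), with limma on log2(FPKM + 1) (0.0592) and with equal FPKM sums (0.162). ICAM1, the adhesion molecule that leukocyte integrins bind, had 1.24 and 0.771 FPKM with REEP6, against 1.11 and 1.40 FPKM in the control. Its groups overlapped and it was not called (edgeR adjusted p 0.516). Antisense genes overlap 23.6% of its exonic bases.

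Between the receptors and NF-kB, 7 of the 8 adaptors and kinases were tested and 0 were called by edgeR with TMM scaling. Over all genes tested 25.0% were called, so 0 of 7 does not show that these genes were unchanged. At an unadjusted p of 0.05 1 was higher and 0 lower, with DESeq2 1 was called (IRAK1, higher, adjusted p 0.0454), and with limma on log2(FPKM + 1) 0 were called. IRAK1, a kinase that works downstream of interleukin-1 and Toll-like receptors, was the most abundant of the 46 genes. It had 81.7 and 71.3 FPKM with REEP6, against 68.8 and 57.8 FPKM in the control, with a log2 fold change of 0.30 ± 0.109 (SE) and an edgeR adjusted p of 0.0688. The REEP6 values were above both controls, but the groups were separated by less than the spread within either. Without NC replicate 1 it was called (log2 fold change 0.43, adjusted p 0.0115), and likewise without REEP6 replicate 2 (0.40, 0.0252).

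None of the 3 subunits of the IkB kinase complex was called by edgeR with TMM scaling, where 25.0% of all tested genes were called. IKBKB, the kinase that phosphorylates IkB proteins in the canonical pathway, had 2.47 and 2.54 FPKM with REEP6, against 3.26 and 2.83 FPKM in the control (edgeR adjusted p 0.150). CHUK, the second kinase, had 5.21 and 5.23 FPKM with REEP6, against 6.73 and 5.81 FPKM in the control (0.142). For both, the REEP6 libraries were lower than both controls without passing the test, and both passed with equal FPKM sums (adjusted p 0.05 for IKBKB, at the threshold, and 0.0435 for CHUK). IKBKG, the scaffold NEMO, had 3.36 and 3.90 FPKM with REEP6, against 3.79 and 3.50 FPKM in the control (0.940), with overlapping groups. Of its 50-base stretches 32.6% also occur in transcripts of other genes, chiefly its pseudogene IKBKGP1, so its value is uncertain. MYD88, the adaptor of interleukin-1 and most Toll-like receptors, TRAF2 and TRAF6 had log2 fold changes of 0.05, -0.06 and -0.21, none called (edgeR adjusted p 0.847, 0.785 and 0.216).

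Of the 4 tested DNA-binding subunits 1 was called in each direction, where 25.0% of all tested genes were called. RELA (chromosome 11, 65653596 to 65663094, minus strand), the p65 subunit of the canonical dimer, had 12.6 and 12.7 FPKM with REEP6, against 8.21 and 10.5 FPKM in the control. The REEP6 libraries were nearly equal and above both controls, which differed from each other. The means were 12.7 ± 0.0818 FPKM with REEP6 and 9.35 ± 1.60 FPKM in the control (SD, n = 2 each), and the log2 fold change was 0.46 ± 0.120 (SE) (edgeR adjusted p 0.021). Its size rested on the controls: it was 0.30 without NC replicate 1, where the call ended (adjusted p 0.0709), and 0.68 without NC replicate 2. The call also ended with limma on log2(FPKM + 1) (0.0834) and with equal FPKM sums (0.0542).

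RELB, the subunit of the non-canonical dimer and itself a known NF-kB target, had 2.46 and 3.24 FPKM with REEP6, against 4.69 and 4.79 FPKM in the control. Both REEP6 libraries were lower than the controls, which were nearly equal. The log2 fold change was -0.70 ± 0.184 (SE) (edgeR adjusted p 0.0218), which became -0.53 without REEP6 replicate 1, where it was no longer called (adjusted p 0.138). The ratio of RELA to RELB FPKM was 5.12 and 3.93 with REEP6, against 1.75 and 2.19 in the control. The precursor genes were not called. NFKB1, which codes for p105 and p50, had 8.63 and 8.90 FPKM with REEP6, against 7.96 and 8.07 FPKM in the control (edgeR adjusted p 0.241). NFKB2, which codes for p100 and p52, had 7.58 and 7.19 FPKM with REEP6, against 8.33 and 7.36 FPKM in the control (0.753). REL lay just under the filter, with 0.958 and 0.833 FPKM with REEP6, against 1.06 and 0.849 FPKM in the control, and 43.3% of its exonic bases are overlapped by another annotated gene.

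Among the genes grouped as inhibitors and feedback genes 4 of the 7 tested fell and 0 rose, against 14.2% lower and 10.9% higher over all genes tested. The 4 include TNFAIP2, which is a TNF-induced gene rather than an inhibitor of NF-kB. At a share of 10.9%, 0 higher among 7 genes is not unusual. None of the 7 was higher at an unadjusted p of 0.05, with DESeq2 or with limma on log2(FPKM + 1). TNFAIP8, of the same role but under the filter, was higher when all genes with a count were tested (log2 fold change 0.75, edgeR adjusted p 0.0106). For NFKBIA that fit gave an adjusted p of 9.42e-05, against 0.0043 with the filter, so the p-values of the 2 fits are not comparable. NFKBIZ (chromosome 3, 101827991 to 101861022, plus strand), a nuclear IkB protein that modifies NF-kB activity at selected promoters, had 2.15 and 2.66 FPKM with REEP6, against 4.48 and 5.65 FPKM in the control. Both REEP6 libraries were lower than both controls (log2 fold change -1.05 ± 0.167 (SE), edgeR adjusted p 0.00256). TNFAIP3 (chromosome 6, 137867188 to 137883312, plus strand), the ubiquitin-editing enzyme A20 that ends signalling from the TNF receptor, had 1.24 and 1.61 FPKM with REEP6, against 2.46 and 3.45 FPKM in the control. Its groups did not overlap, and the controls differed from each other by about as much as the nearer control differed from the REEP6 libraries. The log2 fold change was -1.03 ± 0.219 (SE) (edgeR adjusted p 0.00925), or -0.74 without NC replicate 2 and -1.25 without NC replicate 1. The call ended with limma on log2(FPKM + 1) (0.0554).

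NFKBIA (chromosome 14, 35401511 to 35404749, minus strand), the inhibitor IkB-alpha that NF-kB induces within minutes of its own release, had 17.1 and 15.8 FPKM with REEP6, against 23.8 and 26.2 FPKM in the control. The groups were well apart, with means of 16.5 ± 0.934 FPKM with REEP6 and 25.0 ± 1.71 FPKM in the control (SD, n = 2 each) and a log2 fold change of -0.58 ± 0.103 (SE) (edgeR adjusted p 0.0043). TNFAIP2, a TNF-induced gene linked to cell membrane protrusions, was the second most abundant of the 46, with 49.9 and 49.6 FPKM with REEP6, against 71.7 and 69.3 FPKM in the control. Libraries of a group were close together, and the log2 fold change was -0.47 ± 0.0806 (SE) (edgeR adjusted p 0.00338). Of the other genes of this role, NFKBIB, NFKBIE and TNIP1 were not called. NFKBIB had 14.7 and 13.9 FPKM with REEP6, against 13.1 and 13.2 FPKM in the control (edgeR adjusted p 0.364). NFKBIE had 2.28 and 2.07 FPKM with REEP6, against 2.17 and 2.34 FPKM in the control (0.944), and TNIP1, a partner of A20, had 12.6 and 12.7 FPKM with REEP6, against 12.6 and 12.6 FPKM in the control (0.818). The difference between NFKBIA and these genes was not tested. Within a library, the ratio of NFKBIB to NFKBIA FPKM was 0.858 and 0.878 with REEP6, against 0.549 and 0.505 in the control.

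**Figure D3:**
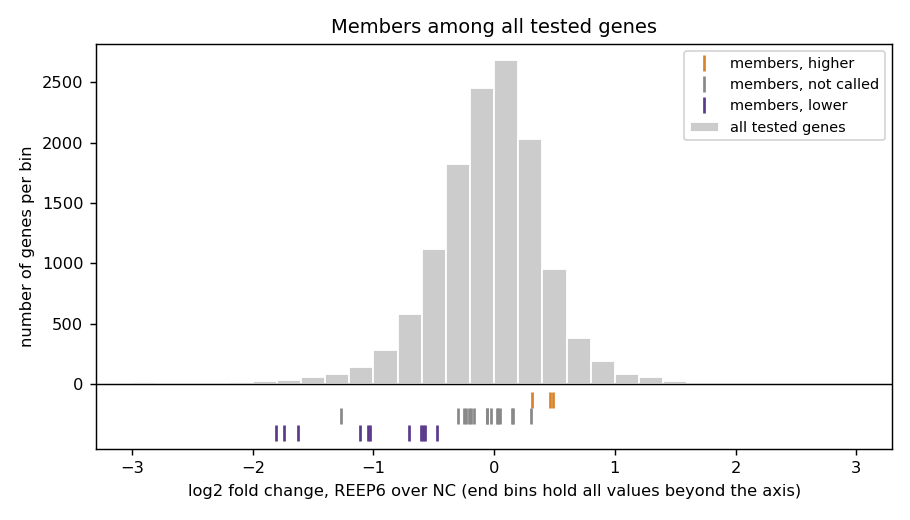
Number of genes (vertical axis) per bin of log2 fold change, REEP6 over control, for all 13077 tested genes in grey, with a tick below the axis for each of the 30 tested NF-kB and inflammatory genes by call. Of the 30, 13 lie under the first quartile of all genes (-0.29) and 4 above the third quartile (0.24).

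The other 16 genes were under the filter, and 10 of them are cytokines or chemokines. The classical inducers were close to absent from both lines. TNF had 0 and 0 counts with REEP6, against 2 and 5 in the control. IL6 had 0 and 3 counts with REEP6, against 2 and 0 in the control, IL1A 1 and 5 counts with REEP6, against 8 and 2 in the control, and IL1B 2 and 6 counts with REEP6, against 18 and 5 in the control. At these counts a difference was not detectable, and at a floor of 3 counts per library the largest limit, in NC replicate 1, was 0.233 CPM. NC replicate 1 was the highest library for IL1A, IL1B and IL18, of which IL18 had 7 and 3 counts with REEP6, against 21 and 6 in the control. CCL20, a chemokine for dendritic cells, had 3 and 1 counts with REEP6, against 10 and 8 in the control. CSF2, which codes for GM-CSF, had 2 and 5 counts with REEP6, against 7 and 9 in the control. Both were lower in both REEP6 libraries, on at most 10 counts.

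When all genes with a count were tested, 2 of the 16 were called, against 6.95% of all genes lower and 6.80% higher. CXCL2, not called with the filter (edgeR adjusted p 0.103), was called in that fit (0.0382). Its p-values are therefore not comparable with those of the filtered fit. CXCL3 was lower (log2 fold change -1.58, edgeR adjusted p 0.0247 without the filter). TNFAIP8, an inhibitor of apoptosis induced by TNF, was higher, with 124 and 108 counts with REEP6, against 60 and 91 in the control (log2 fold change 0.75, adjusted p 0.0106). CXCL16, a membrane-bound chemokine, had 32 and 20 counts with REEP6, against 15 and 10 in the control, without overlap and without a call (adjusted p 0.0803). The remaining genes overlapped between the groups or held few reads: TRAF1 had 68 and 61 counts with REEP6, against 66 and 62 in the control, TLR3 10 and 28 counts with REEP6, against 9 and 16 in the control, CCL5 10 and 10 counts with REEP6, against 7 and 24 in the control and the interleukin-6 receptor IL6R 9 and 12 counts with REEP6, against 11 and 9 in the control.

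**Figure D4:**
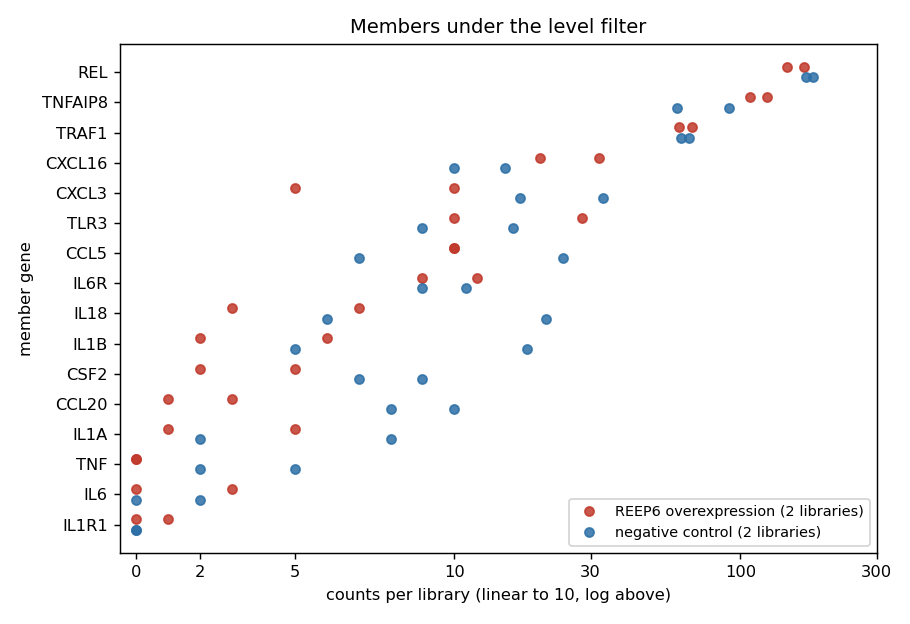
Counts per library (linear to 10, logarithmic above) of the 16 genes under the level filter, REEP6 overexpression in red above negative control in blue. TNF is at 0 in both REEP6 libraries, with 2 and 5 counts in the control, and TNFAIP8 is at 124 and 108 with REEP6, against 60 and 91 in the control.

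Other genes of NF-kB signalling moved both ways. Of 54 such genes 47 were tested, and 11 were lower and 5 higher. That is 23.4% and 10.6%, against 14.2% and 10.9% over all genes, and their median log2 fold change was -0.10. BIRC2, the ubiquitin ligase cIAP1 that works in the TNF receptor complex, had 8.97 and 9.01 FPKM with REEP6, against 15.9 and 15.8 FPKM in the control (log2 fold change -0.79 ± 0.0915 (SE), edgeR adjusted p 0.000734). CYLD, a deubiquitinase that restrains the pathway, was at 2.54 and 2.61 FPKM with REEP6, against 4.85 and 3.93 FPKM in the control (-0.74 ± 0.118 (SE), adjusted p 0.00257). Lower genes thus included both promoting and restraining parts of the pathway. IRAK4 fell by 0.64, the protease MALT1 by 0.62, the kinase TBK1 by 0.59 and the TRAIL receptor gene TNFRSF10B by 0.38 on the log2 scale.

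TNFRSF1B, the second TNF receptor, was the gene of this list with the largest rise, at 3.47 and 3.35 FPKM with REEP6, against 1.73 and 1.52 FPKM in the control (log2 fold change 1.10 ± 0.183 (SE), edgeR adjusted p 0.00315). Both TNF receptor genes were thus higher with REEP6, although TNFRSF1A lost its call in several settings. TNFRSF10A rose by 0.79, in the other direction from its paralog TNFRSF10B. How far reads of these paralogs were kept apart was not tested. NKIRAS2, an inhibitor of IkB degradation, rose by 0.53, the scaffold CARD10 by 0.45 and TRAF3 by 0.32. The CARD10 and TRAF3 calls ended with limma on log2(FPKM + 1) (adjusted p 0.105 for each) and with equal FPKM sums (edgeR adjusted p 0.118 and 0.189). With DESeq2 the TRAF3 call ended (adjusted p 0.0928). The TNFRSF10A and CARD10 calls ended without NC replicate 2 (adjusted p 0.0538 and 0.0781), the TNFRSF10B call without REEP6 replicate 1 (0.0617), and the TRAF3 call without NC replicate 1 (0.136) or either REEP6 library (0.178 and 0.118).

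Further known target and inflammatory genes were mostly under the filter, with 31 of 50 not tested and 10 without a single count. Of the 19 tested, 5 fell and 0 rose (26.3% and 0%, against 14.2% and 10.9% over all genes). At an unadjusted p of 0.05 10 were lower and 2 higher, and 0 were called higher by DESeq2 or by limma on log2(FPKM + 1). PTGS2, the cyclooxygenase COX-2, had 6.78 and 7.93 FPKM with REEP6, against 18.5 and 22.2 FPKM in the control (log2 fold change -1.44 ± 0.120 (SE), edgeR adjusted p 0.000153). PTGES, which makes prostaglandin E2 from its product, had 46.0 and 52.1 FPKM with REEP6, against 79.6 and 93.2 FPKM in the control (-0.79 ± 0.106 (SE), adjusted p 0.00125). Consecutive enzymes of prostaglandin E2 synthesis were thus both lower. TNFSF10, the death ligand TRAIL and also an interferon target, had 2 and 7 counts with REEP6, against 55 and 59 in the control, a log2 fold change of -3.53 ± 0.503 (SE), and passed the filter only in the control, so that its direction was built into its selection. With a filter on the mean over all libraries it drops out, and 4 of 18 genes of the list were lower and 0 higher. GADD45A, a stress gene, fell by 0.77, and CFLAR, which blocks caspase-8, by 0.42. The CFLAR call ended without REEP6 replicate 2 (adjusted p 0.0833). Without NC replicate 1, 8 genes of this list were lower and 1 was higher.

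Genes of the interleukin-6 family and its STAT3 pathway were examined because IL6ST and LIF belong to it. Of 23 genes 18 were tested, and 5 were lower and 2 higher (27.8% and 11.1%, against 14.2% and 10.9% over all genes). The lower genes include the 3 Janus kinases that bind gp130. JAK1 had 10.4 and 10.1 FPKM with REEP6, against 15.7 and 15.2 FPKM in the control (log2 fold change -0.56 ± 0.0878 (SE), edgeR adjusted p 0.00232), JAK2 fell by 0.73 and TYK2 by 0.35. The TYK2 call ended with limma on log2(FPKM + 1) (adjusted p 0.0648) and in edgeR without an abundance trend (0.0713). It also ended without REEP6 replicate 1, where the log2 fold change was -0.26. STAT3 itself was not called, with 7.19 and 6.88 FPKM with REEP6, against 6.61 and 6.20 FPKM in the control (edgeR adjusted p 0.231). BCL6, a transcriptional repressor, fell by 0.69.

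SOCS3, the feedback inhibitor that binds gp130 and that STAT3 induces, had 5.55 and 6.57 FPKM with REEP6, against 4.13 and 4.33 FPKM in the control (log2 fold change 0.55 ± 0.163 (SE), edgeR adjusted p 0.0364). Its call ended without NC replicate 1 (adjusted p 0.0818) or 2 (0.0512), without REEP6 replicate 2 (0.224), with DESeq2 and with limma on log2(FPKM + 1). Without NC replicate 1 or without REEP6 replicate 2, 0 genes of the list were higher. OSMR, the second receptor partner of gp130, was near 0, with 6 and 5 counts with REEP6, against 14 and 12 in the control, and LIFR had 2.32 and 2.28 FPKM with REEP6, against 2.47 and 2.71 FPKM in the control without a call (edgeR adjusted p 0.413).

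**Figure D5:**
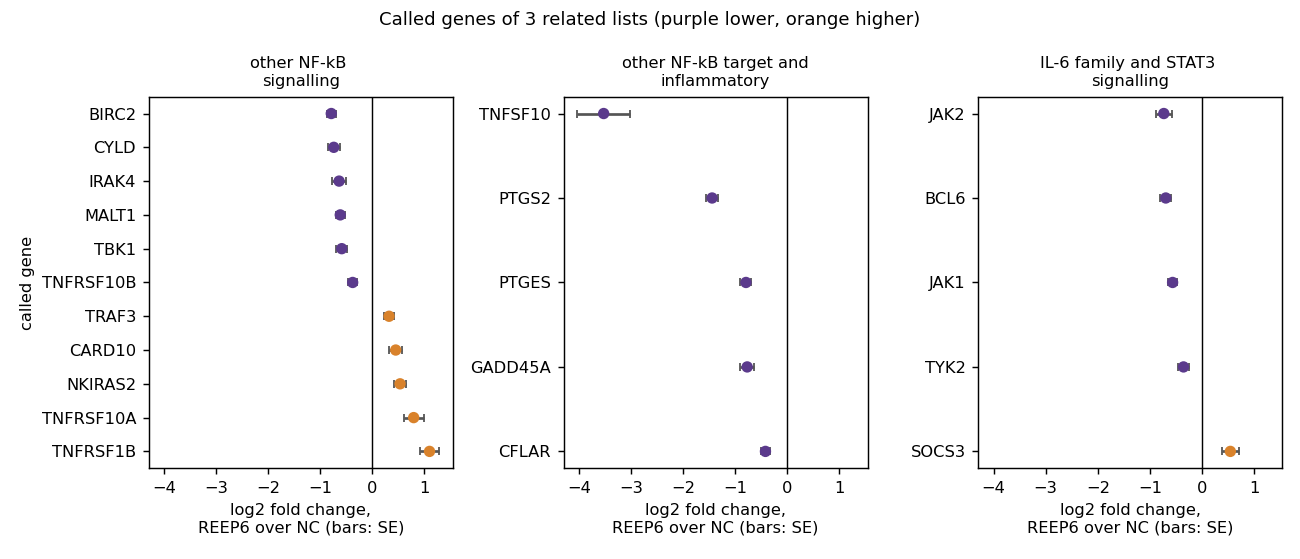
Log2 fold change, REEP6 over control, with its SE as a bar, of called genes named from 3 related lists; purple is lower and orange is higher with REEP6. PTGS2 and TNFSF10 lie below -1, and TNFRSF1B is the one gene above 1.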

How the data were processed

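RNA of 4 SCC-15 libraries, 2 with REEP6 overexpression and 2 controls, was grouped by sample title. Per the file headers, the authors deposited a raw count and an FPKM value per gene. Per the submitters' processing notes, HISAT2, HTSeq 0.13.5 and the build GRCh38 were used. The labels give no annotation, strand setting or treatment of multi-mapping reads. Deposited FPKM was checked against the counts: it implied 1 length per gene in 100% of 25261 genes (relative tolerance 0.0001).

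Genes with at least 1 FPKM in at least 2 libraries (13077) were scaled by TMM and tested with edgeR 4.0.16 in R 4.3.3 (quasi-likelihood, 1 group term, 2 residual degrees of freedom, Benjamini-Hochberg over all genes tested). The biological coefficient of variation, shared by all genes, was 9.35%. The quasi-likelihood test moderates each gene's spread toward a trend over all tested genes. The SE is the log2 fold change over the square root of F. Exact permutation of the 4 libraries was not used, since its smallest two-sided p is 0.333. Libraries of a group differed by more than counting noise (chi-square per degree of freedom 6.24 with REEP6 and 10.6 in the control). The method was tested on simulated data, drawn with the same dispersion for all genes and libraries. The real groups differ in spread, so that test does not bear on the calls made here. Alternatives were other scalings, filters, pseudocounts and tests (DESeq2 1.42.0, limma 3.58.1), a replicate block and leaving out each library.

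All 51103 identifiers matched GENCODE 29, the source of gene coordinates. Shared 50-base stretches and exon overlaps came from its transcripts, and promoters from RefSeq. The members, lists and tests were chosen with earlier results of these data known. Named genes were all members by role, up to 6 called genes per direction in each related list, and REEP6. Some items are not reported here. Genes named outside this rule were chosen after their values were seen. For SOD2, listed on 2 rows, the row with more counts was used.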

Additional observations from a re-analysis of the deposited data

How the results depend on the processing

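Of the 14 called genes of the set of 46 (the members), 8 kept their call in each alternative that gave a value: CXCL8, CXCL10, PTX3, IL6ST, TLR4, NFKBIA, NFKBIZ and TNFAIP2. No called gene among those named changed sign under the alternatives run. Uncalled members changed sign in at least 1 setting: CXCL1 (0.11 without NC replicate 2), CCL2 (0.26 without REEP6 replicate 1), ICAM1, MYD88, TRAF2, IKBKG, NFKB2, NFKBIE and TNIP1. The causes of the changes below were not tested. With 2 libraries per group a gene's own spread rests on 2 residual degrees of freedom. The edgeR test moderates it toward a trend over all tested genes, so the p-values rest partly on the spread of other genes. Genes at a few counts could not show a difference.

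The members called lower were 11 and became 5 with a minimum of 5 FPKM, where fewer were tested. The members called higher were 3 and became 0 with equal FPKM sums, 5 without a filter, 1 with limma on log2(FPKM + 1), 0 with log2(FPKM + 0.1), 1 with log2(FPKM + 5), 1 without an abundance trend and 0 at an adjusted p of 0.01. Under equal FPKM sums the median over all genes was -0.14 (log2), against -0.01 with TMM scaling, so more genes were called lower by its construction. Other signalling genes called lower (11) became 7 with a minimum of 5 FPKM, with limma at each pseudocount and without an abundance trend, and 5 at an adjusted p of 0.01. Those called higher (5) became 3 with equal FPKM sums, a minimum of 5 FPKM, limma at each pseudocount or no abundance trend, and 2 at an adjusted p of 0.01. Other target genes called lower (5) became 9 with equal FPKM sums or no filter and 3 with limma on log2(FPKM + 0.1), and 1 was called higher without a filter. The IL-6 family genes called higher (2) became 0 with equal FPKM sums, a minimum of 5 FPKM, DESeq2, limma at each pseudocount and an adjusted p of 0.01.

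Over all genes, calls lower (1853) became 2824 with equal FPKM sums, 1233 with limma on log2(FPKM + 0.1) and 897 at an adjusted p of 0.01. Calls higher (1422) became 661 with equal FPKM sums, 936 with a minimum of 5 FPKM, 634, 597 and 642 with limma at pseudocounts of 1, 0.1 and 5, and 495 at an adjusted p of 0.01.

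When 1 library was left out, the counts ranged from 9 to 11 (members lower), 1 to 3 (members higher), 7 to 10 and 4 to 6 (signalling genes lower and higher), 5 to 8 and 0 to 1 (target genes), 4 to 6 and 0 to 3 (IL-6 family), and 1272 to 1718 and 940 to 1495 (all genes). The lone library of an arm is then assumed to vary like the other group.

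Libraries with the same replicate number shared only a number, since the labels tie it to no batch or day. Their deviations from the group means correlated at 0.272 over 13077 genes. With the replicate number as a block, 14 members were lower and 4 higher, 9 signalling genes were higher, 10 target genes were lower and 2 higher, 8 IL-6 family genes were lower and 5 higher, and 3062 genes were lower and 2960 higher over all genes. Of the uncalled members, IRAK1 (higher, adjusted p 1.15e-06) and CXCL2 (0.0173), CHUK (0.0324) and IKBKB (0.0411, all lower) were called under it. The block leaves fewer residual degrees of freedom than the main fit, and far more genes were called with it. Its p-values are therefore not comparable with those of the main fit.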
